A study of Homo sapiens with 9 samples.

Results

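The genes described here are 10 Krüppel-like factor (KLF) genes, KLF2, KLF3, KLF4, KLF5, KLF6, KLF7, KLF9, KLF10, KLF11 and KLF13. They were taken by gene symbol from the deposited RNA-seq table, which lists 58735 genes, 18 of them named KLF and a number. Of the 8 KLF genes outside this list, KLF12, KLF15 and KLF16 passed the filter on low counts. All 10 listed genes passed it in each comparison. RNA was collected from KHM-5M, an established thyroid cancer cell line with mutations in BRAF and in the TERT promoter, after 24 h with the solvent DMSO (3 samples), with 0.3 μM YK-4-279 (3 samples) or with 1 μM YK-4-279 (3 samples). YK-4-279 is a small molecule described as an inhibitor of ETS-family transcription factors, the family whose members read a GGAA core in DNA. The series used 1 cell line and 1 time point. The labels number 3 samples in each group, a number that differs from the biological replicates given in the methods, and do not say which samples came from separate cultures. The SDs and p-values below thus measure the spread between these 3 samples, part of which may be technical.

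KLF proteins are DNA-binding factors with C-terminal zinc fingers that recognise CACCC and GC-rich boxes, and they share these sites with the SP factors. KLF2, KLF4, KLF5, KLF6 and KLF7 mostly act as activators, KLF3 recruits the corepressor CtBP, and KLF9, KLF10, KLF11 and KLF13 carry a motif that binds the corepressor SIN3A. Several KLF genes are early response genes: KLF2 and KLF4 lie downstream of the ERK5 and MEF2 pathway, KLF10 and KLF11 respond to TGF-beta, and KLF9 responds to thyroid and steroid hormone receptors.

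Stretches of DNA before a RefSeq start of 4 of these genes are shown to place the ETS core beside genes that changed and genes that did not. RefSeq promoter windows on GRCh38.p14, running from 250 bases before to 50 bases after a start, were matched for 8 of the 10 genes with 13 windows, and KLF3 and KLF10 had no entry. Printed below are the parts of those windows that hold no exon in the GENCODE v44 annotation, read on the strand of the gene, with GGAA or its complement TTCC in capitals. KLF11 and KLF13 rose with 1 μM YK-4-279, and no change was detected for KLF9 and KLF6. The KLF11 stretch (chr2:10043971-10044174, plus strand) lies inside the KLF11 gene of the deposited table (chr2:10042849-10054836), before the second of the RefSeq starts, and held 5 GGAA cores and 5 copies of the GC box GGGCGG. The KLF13 stretch (chr15:31326585-31326834, plus strand) held 1 GGAA core and 3 GC boxes. The KLF9 stretch (chr9:70414658-70414907, minus strand) held 3 GGAA cores and 0 GC boxes. The KLF6 stretch (chr10:3785282-3785459, minus strand) held 0 GGAA cores and 1 GC box, and the whole KLF6 window held 1 GGAA core. Among stretches not printed, another of KLF11 held 1 GGAA core. The stretch of KLF4, which was called as higher at 1 μM, held 5 GGAA cores and 4 GC boxes. KLF2 and KLF5 were not called, and their stretches held 1 GGAA core (KLF2) and 2 and 0 (KLF5). KLF7, for which no change was detected, held 5, 3 and 0 GGAA cores in stretches of 229, 148 and 137 bases.
KLF11: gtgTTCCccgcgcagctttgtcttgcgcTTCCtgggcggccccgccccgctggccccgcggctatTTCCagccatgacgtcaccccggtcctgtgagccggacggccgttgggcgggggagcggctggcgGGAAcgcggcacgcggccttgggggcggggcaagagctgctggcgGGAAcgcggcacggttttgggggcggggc
KLF13: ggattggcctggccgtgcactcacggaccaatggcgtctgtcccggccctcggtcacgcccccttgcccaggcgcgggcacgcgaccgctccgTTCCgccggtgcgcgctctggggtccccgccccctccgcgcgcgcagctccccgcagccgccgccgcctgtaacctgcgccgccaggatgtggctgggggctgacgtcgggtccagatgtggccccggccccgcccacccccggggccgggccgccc
KLF9: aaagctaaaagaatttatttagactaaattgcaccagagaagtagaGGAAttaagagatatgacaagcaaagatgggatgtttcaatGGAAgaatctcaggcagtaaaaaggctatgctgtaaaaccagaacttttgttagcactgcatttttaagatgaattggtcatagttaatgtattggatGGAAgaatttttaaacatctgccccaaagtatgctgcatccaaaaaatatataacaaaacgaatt
KLF6: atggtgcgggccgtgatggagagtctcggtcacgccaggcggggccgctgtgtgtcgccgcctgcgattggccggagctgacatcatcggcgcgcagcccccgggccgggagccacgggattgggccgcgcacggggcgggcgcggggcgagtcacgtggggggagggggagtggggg
Over whole windows, and counting both strands, GGAA occurred in 12 of the 13 KLF windows, from 8 of the 8 matched genes, and in 95.5% of all 35116 RefSeq promoters. The longer ETS sequence CCGGAAG was in 0 of the 13 windows, against 10.3% of all promoters. GGGCGG was in 8 of the 13 windows, from 7 of the 8 genes with KLF9 the exception, against 45.0% of all promoters. CACCC, the box that KLF proteins themselves bind, was in 7 of the 13 windows, from 4 genes, against 59.9%. The cyclic AMP response element TGACGTCA was in 1 of the 13, inside the KLF11 stretch above, against 1.8% of all promoters. The serum response element was in 0 of the 13. CCGGAAG overlaps GGAA, so those counts are not separate. A match is a description of the letters, and the series measured no binding at these sites.

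The 9 libraries held 16903251 to 18238884 counts each, and 3 counts corresponded to 0.164 to 0.177 CPM (counts scaled to library size). Mitochondrial genes took 2.84% to 3.44% of counts and protein-coding genes 97.6% to 98.0%. Within groups, the chi-square per degree of freedom between a pair of samples ran from 3.20 to 10.7, so no pair agreed within sampling noise. The widest pair was replicates 1 and 2 of DMSO. Against the thyroid label, PAX8, a thyroid lineage factor, stood at 22.8 ± 0.774 FPKM in DMSO (SD, n = 3) and the keratins KRT8 and KRT18 at 191 ± 1.11 and 132 ± 3.18 FPKM. The lineage factors NKX2-1 and FOXE1 were low in DMSO, at 0.083 ± 0.079 FPKM (2 to 10 counts) and 0.21 ± 0.15 FPKM (7 to 24 counts). FPKM scales fragments by gene length and library size. The thyroid differentiation genes TG, TSHR and SLC5A5 had between 0 and 4 counts in any sample, and CDH1, encoding E-cadherin, at most 5. PTPRC (blood cells), PECAM1 (endothelium) and CALCA (thyroid C cells) had at most 8 counts, whereas COL1A1, a fibroblast marker, was at 47.8 ± 8.53 FPKM in DMSO and was lower with 1 μM (log2 fold change -0.41, SE 0.10, adjusted p = 0.0132, edgeR). KRT7, a keratin of simple epithelium, was lower at 1 μM than at 0.3 μM (-0.22, SE 0.07, adjusted p = 0.0440, edgeR). Their part in the KLF values was not tested.

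The levels in DMSO came first, on the FPKM scale, which is per length and so can be set between genes. KLF6 was the most abundant of the 10 with 40.6, 46.7 and 39.6 FPKM in DMSO replicates 1, 2 and 3 (mean 42.3 ± 3.84, SD, n = 3), above 93.9% of the genes tested. KLF13 followed at 10.5 ± 0.804 FPKM and KLF10 at 9.999 ± 0.198 FPKM, and their sample ranges overlapped. KLF9 stood apart from its neighbours at 7.60 ± 0.531 FPKM.

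KLF5, KLF3 and KLF7 formed a run of overlapping levels at 6.03 ± 0.434, 5.96 ± 0.459 and 5.85 ± 0.298 FPKM. KLF2 (3.70 ± 1.04 FPKM) overlapped KLF4 (2.41 ± 0.326 FPKM). KLF11 was the least abundant at 1.41 ± 0.106 FPKM, with 114, 108 and 118 counts in the DMSO samples. Of the 9 neighbouring pairs in this order, 4 thus overlapped in their samples. Without DMSO replicate 2, which held the lowest KLF2 and KLF13 values, 1 pair did.

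**Figure D1:**
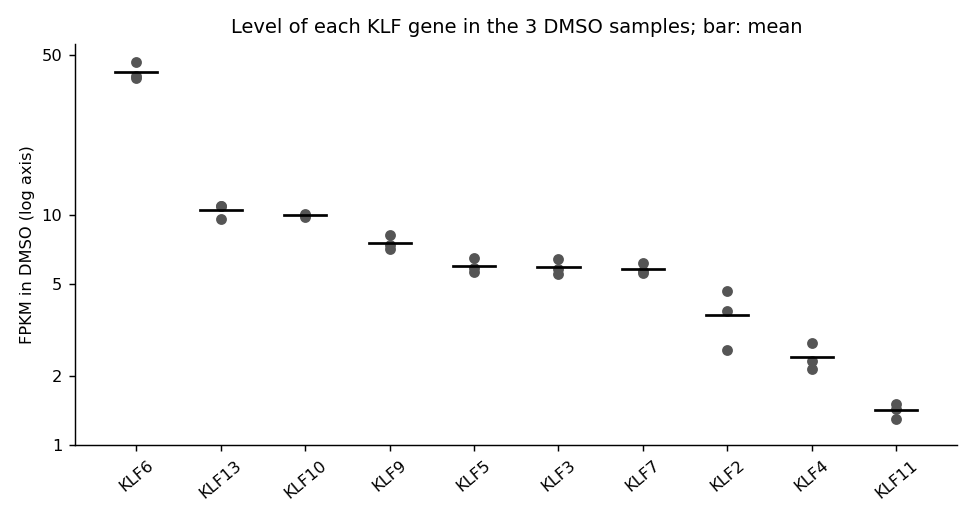
Level of each of the 10 KLF genes in the 3 DMSO samples, in FPKM on a log axis, ordered by mean, with points for samples and a bar for the mean. KLF6, near 42.3 FPKM, stands above the other 9 genes, and KLF11, near 1.41 FPKM, below them.

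The other 8 KLF genes ran from a level like that of KLF13 down to 0 counts. KLF16 (13.4 ± 2.45 FPKM in DMSO), KLF12 (3.98 ± 0.205 FPKM) and KLF15 (0.556 ± 0.168 FPKM) passed the filter, whereas KLF1, the erythroid factor, had 0 counts in every sample and KLF8, KLF14, KLF17 and KLF18 had at most 10. The limit that 0 counts allow is 3 counts per library, covering counting error only. KLF6 accounted for 41.6% to 47.9% of the summed FPKM of the 10 genes in DMSO.

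The comparison of 1 μM with DMSO asks which genes change at the higher dose of the compound. KLF10, KLF11, KLF13 and KLF4 rose (edgeR quasi-likelihood test, adjusted p under 0.05), and 0 of the 10 genes fell. Over all 15617 genes tested, 17.6% were called and 7.67% were called as higher, against 4 of these 10. At least 1.5-fold rises were called for KLF10 and KLF11, 2 of 10, against 1.37% of all genes. The 1 μM samples all lay above the DMSO samples for 5 of the 10, the 4 called genes and KLF3, and for 20.0% of all genes. The median log2 fold change of the 10 genes was 0.21, and that of all genes tested was -0.0083. The counts over these 10 chosen genes are a description and carry no test of their own.

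Of the 4 SIN3A-binding genes among the 10, 3 rose, against 7.67% of all genes called as higher. The class was not counted beyond the 10, so nothing about it as a whole is read from that. KLF10, a TGF-beta inducible repressor, measured 9.79, 10.01 and 10.19 FPKM in DMSO, 10.57, 9.71 and 11.65 at 0.3 μM, and 16.37, 14.63 and 15.83 at 1 μM. The 1 μM samples were all above every other sample, and the DMSO and 0.3 μM samples overlapped. Its log2 fold change at 1 μM was 0.63 (SE 0.07, 95% interval 0.48 to 0.77, adjusted p = 5.35e-05), a 1.54-fold rise. In raw counts it moved from 679, 727 and 696 to 1205, 1014 and 1072.

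KLF11, the closest relative of KLF10 and a regulator of pancreatic insulin expression, measured 1.43, 1.30 and 1.51 FPKM in DMSO, 2.09, 2.13 and 1.81 at 0.3 μM, and 2.48, 2.44 and 2.49 at 1 μM. The 3 groups did not overlap. Its log2 fold change at 1 μM was 0.79 (SE 0.12, 95% interval 0.52 to 1.05, adjusted p = 0.000735), a 1.73-fold rise and the largest among the 10 genes. The study displayed KLF11 among its upregulated genes from these same samples, so its direction here is not independent evidence.

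KLF13, a factor known from lymphocytes and the heart, measured 10.99, 9.61 and 11.01 FPKM in DMSO, 10.54, 11.75 and 10.64 at 0.3 μM, and 13.46, 13.57 and 13.07 at 1 μM. The 1 μM samples again lay above all 6 others. The rise was smaller than those of KLF10 and KLF11, with a log2 fold change of 0.33 (SE 0.07, 95% interval 0.19 to 0.47, adjusted p = 0.00367), or 1.25-fold. The calls on KLF10, KLF11 and KLF13 held under all 14 alternatives, with adjusted p of at most 0.00263, 0.00577 and 0.0194. The remaining SIN3A-binding gene of the 10, KLF9, measured 7.15, 7.47 and 8.19 FPKM in DMSO and 7.63, 6.86 and 7.79 at 1 μM. Those groups overlapped, and the 95% interval of its log2 fold change was -0.22 to 0.12 (adjusted p = 0.712, edgeR). Of the 3 tested KLF genes outside the 10, 0 were called at 1 μM against DMSO. The most abundant of them, KLF16, had a log2 fold change of 0.09 (interval -0.14 to 0.33, adjusted p = 0.613, edgeR).

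Among the genes classed as activators, 1 of 5 was called, against 17.6% of all genes, and nothing about the class is read from that. KLF4, a factor of epithelial differentiation and of reprogramming to pluripotency, measured 2.78, 2.32 and 2.15 FPKM in DMSO, 2.31, 2.59 and 3.26 at 0.3 μM, and 3.45, 3.39 and 2.96 at 1 μM. The 1 μM samples lay above the DMSO samples, while the 0.3 μM samples overlapped both. Its log2 fold change at 1 μM was 0.42 (SE 0.13, 95% interval 0.14 to 0.70, adjusted p = 0.0394), or 1.34-fold. That call was lost with DESeq2 (adjusted p = 0.0648) and with limma on log2 FPKM (adjusted p = 0.0571). It was also lost without DMSO replicate 2 (0.0568), DMSO replicate 3 (0.151), 1 μM replicate 1 (0.113) or 1 μM replicate 2 (0.116), these being edgeR adjusted p-values. The log2 fold change stayed between 0.34 and 0.54.

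No call was made for the other activators. KLF6, a tumour suppressor candidate and the most abundant of the family here, measured 43.19, 42.32 and 43.67 FPKM at 1 μM, within the range of its DMSO samples, and the interval of its log2 fold change was -0.13 to 0.15. KLF5, a factor of proliferating epithelium, averaged 6.11 ± 0.473 FPKM at 1 μM against 6.03 ± 0.434 (interval -0.19 to 0.20). KLF7, best known from neurons, averaged 5.80 ± 0.104 against 5.85 ± 0.298 FPKM (interval -0.17 to 0.11). For these 3 genes the samples of both groups overlapped, and each interval excluded a 1.5-fold change in either direction (0.585 on the log2 scale).

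KLF2, a shear-stress factor of endothelium, was the least precise. Its values were 4.66, 2.60 and 3.83 FPKM in DMSO and 3.96, 5.01 and 4.31 at 1 μM, which overlapped, with DMSO replicate 2 the lowest of all 9 samples. The log2 fold change of 0.24 had an interval of -0.15 to 0.64 (adjusted p = 0.394), which does not exclude a 1.5-fold rise. It was 0.05 without DMSO replicate 2, 0.45 without DMSO replicate 1 and 0.15 without 1 μM replicate 2. KLF3, the CtBP-recruiting repressor, measured 5.83, 5.58 and 6.47 FPKM in DMSO and 7.21, 6.69 and 6.60 at 1 μM. Its groups did not overlap, yet the log2 fold change of 0.18 (SE 0.08, interval 0.01 to 0.35) missed the threshold (adjusted p = 0.126).

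**Figure D2:**
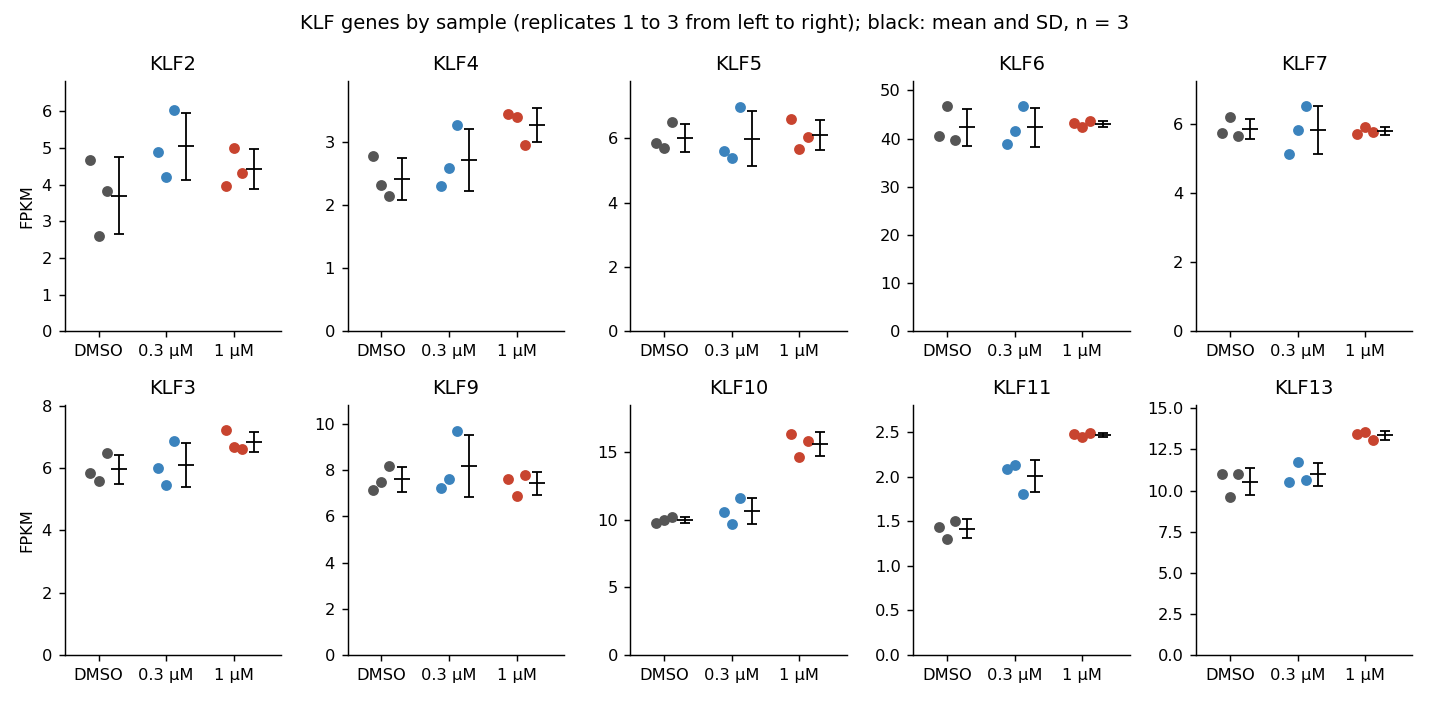
FPKM of each of the 10 KLF genes in every sample, from 0, in DMSO (grey), 0.3 μM (blue) and 1 μM (red) YK-4-279, with the mean and SD of 3 samples in black beside each group. For KLF10 and KLF13 the 3 red points lie above all others, and for KLF11 the 3 groups are apart.

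In absolute FPKM, KLF10 gained 5.61 and KLF13 gained 2.83 at 1 μM, together 8.44 of the 12.6 FPKM by which the sum of the 10 genes rose. That sum was 95.8 ± 1.44 FPKM in DMSO, 99.9 ± 9.12 at 0.3 μM and 108 ± 1.79 at 1 μM (SD, n = 3). KLF11, with the largest fold, gained 1.05 FPKM. KLF10 took 10.3% to 10.7% of the sum in DMSO and 13.7% to 14.9% at 1 μM, and KLF6 took 39.2% to 40.2% at 1 μM, below its range in DMSO.

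The comparison of 0.3 μM with DMSO uses the same DMSO samples as the comparison above. No KLF gene was called by edgeR, or by DESeq2, and 0.0% of the 15762 genes tested passed. At an unadjusted p under 0.05 there were 594 genes in all, 3.77%, and 2 of the 10 KLF genes, KLF11 and KLF2. KLF11 ranked at position 20 of all genes by p, with a log2 fold change of 0.50 (SE 0.14, interval 0.20 to 0.81, edgeR adjusted p = 0.995). It was the 1 gene of the 10 whose 0.3 μM samples all lay above the DMSO samples, as did 3.95% of all genes. KLF2 measured 4.88, 4.21 and 6.03 FPKM at 0.3 μM, overlapping DMSO, with a log2 fold change of 0.45 (SE 0.19, edgeR adjusted p = 0.995). That value fell to 0.25 without DMSO replicate 2. The other 8 genes had log2 fold changes between -0.01 and 0.17.

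Within the 0.3 μM group, replicate 3 was the highest of the 3 samples for 8 of the 10 KLF genes, the exceptions being KLF11 and KLF13. It was the highest for 35.9% of the genes tested at 1 μM against DMSO. For KLF9 it read 9.71 FPKM against 7.22 and 7.63, and for KLF6 46.8 against 38.8 and 41.5. Its summed KLF level was 110 FPKM against 93.1 and 96.2 in the other two. What set this sample apart was not tested. Among KLF genes outside the 10, KLF15 read 40, 50 and 53 counts at 0.3 μM, against 37, 24 and 22 in DMSO and 29, 24 and 34 at 1 μM, without passing the test in any comparison.

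Between the doses, KLF10 and KLF13 were called as higher at 1 μM. The background was 12.6% of 15583 genes called and 5.85% called as higher, against 2 of 10. KLF10 rose by a log2 fold change of 0.55 (SE 0.08, interval 0.38 to 0.72, adjusted p = 0.000395, edgeR). KLF13 rose by 0.28 (SE 0.06, interval 0.15 to 0.42, adjusted p = 0.00923, edgeR). For KLF11 the step was 0.30 (SE 0.12, interval 0.04 to 0.55), and it missed the threshold (adjusted p = 0.122, edgeR) although its groups did not overlap. Non-overlap in the higher direction held for KLF10, KLF11 and KLF13, 3 of 10, and for 16.6% of all genes.

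Set side by side, the log2 fold changes of KLF10 were 0.09 at 0.3 μM and 0.63 at 1 μM against the shared DMSO samples, those of KLF13 were 0.06 and 0.33, and those of KLF11 were 0.50 and 0.79. KLF2 had 0.45 and 0.24, and the dose difference for KLF2 (-0.19, interval -0.50 to 0.12) was not called. KLF4 had 0.17 and 0.42, with a dose difference of 0.26 (interval -0.03 to 0.55) that was not called. With single samples left out, the 0.3 μM value of KLF4 ran from 0.02 (without 0.3 μM replicate 3) to 0.28 (without DMSO replicate 1) and its dose difference from 0.16 to 0.41. The 0.3 μM value of KLF10 ran from 0.02 to 0.15 and that of KLF11 from 0.45 to 0.58. The medians of the 10 genes were 0.07 at 0.3 μM, 0.21 at 1 μM and 0.09 between doses, and those of all genes were 0.0009, -0.0083 and 0.0026.

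**Figure D3:**
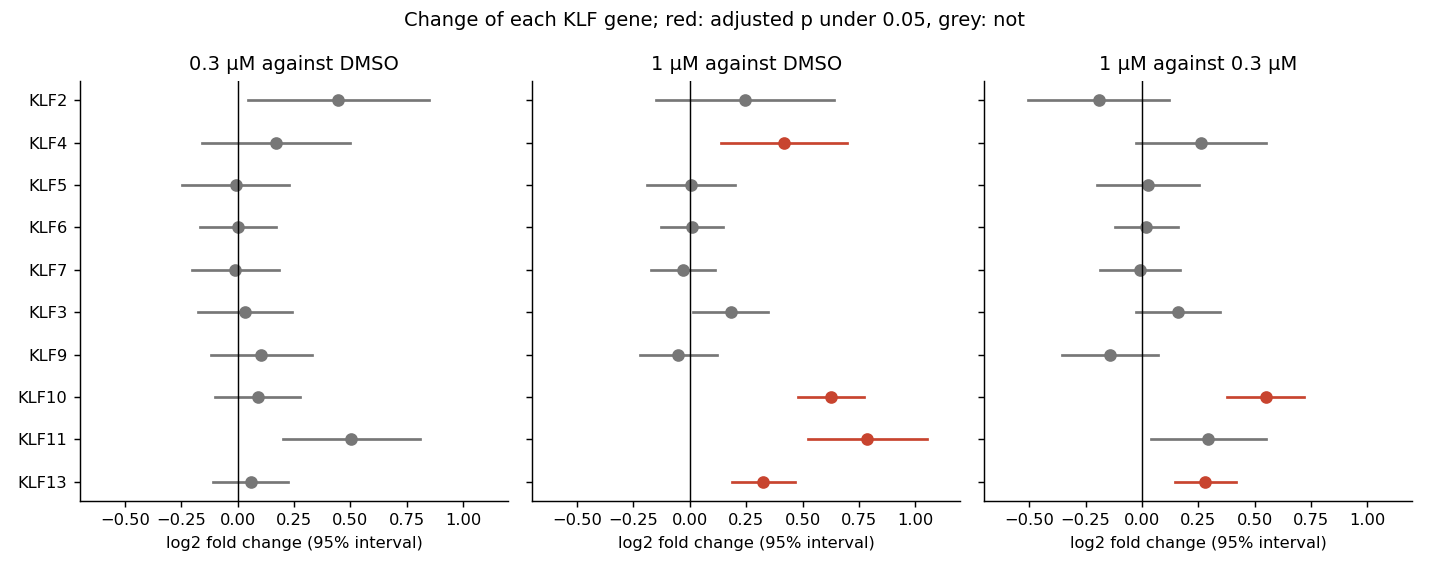
Log2 fold change of each KLF gene with its 95% interval in the 3 comparisons, red where the adjusted p was under 0.05. Red points are absent at 0.3 μM against DMSO, mark KLF4, KLF10, KLF11 and KLF13 at 1 μM against DMSO, and mark KLF10 and KLF13 between the doses.

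Genes that work with KLF factors were counted in lists chosen by function. Over all genes tested at 1 μM against DMSO, 17.6% were called, 7.67% as higher and 9.95% as lower. The SP, cofactor, ERK5 and MEF2, and nuclear receptor lists each held 1 called gene, and nothing about those lists is read from that. Of 6 tested SP factors, 0 rose and 1 fell at 1 μM, SP1, a ubiquitous GC-box activator (log2 fold change -0.19, SE 0.05, adjusted p = 0.0234). The call on SP1 was lost without DMSO replicate 3 or any 1 of the 1 μM samples, at adjusted p of up to 0.0881, with the replicate block (0.0710) and with the filter at 1 count (0.0813). Of 10 cofactors, CTBP2, a corepressor that KLF3 recruits, rose (0.18, SE 0.06, adjusted p = 0.0448), and its call was lost without any 1 of the samples other than DMSO replicate 2 (up to 0.131), with the replicate block (0.106) and with limma (0.0579). Adjusted p-values here and for the lists that follow are from edgeR unless another tool is named.

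Upstream of KLF2 and KLF4, 1 of 7 genes of the ERK5 and MEF2 list rose at 1 μM, MEF2A, a MADS-box activator (0.33, SE 0.07, adjusted p = 0.00445). Of 8 genes of the TGF-beta pathway, 4 rose and 1 fell, against the 7.67% and 9.95% above. The ligand gene TGFB2 fell from 22.0 ± 0.594 to 14.4 ± 0.403 FPKM (log2 fold change -0.63, SE 0.06, adjusted p = 1.7e-05). TGFBR2, a receptor chain, rose from 25.0 ± 1.13 to 35.5 ± 2.02 FPKM (0.49, SE 0.06, adjusted p = 0.000159). The ligand gene TGFB1 rose (0.32, SE 0.09, adjusted p = 0.0277), a call lost without DMSO replicate 3 or any 1 of the 1 μM samples (up to 0.0904) and with limma (0.0736). TGFBR1 and SMAD3, named after their values were seen, rose as well. Of 3 tested nuclear receptors, THRA, a thyroid hormone receptor, fell (-0.25, SE 0.07, adjusted p = 0.0317), a call lost without DMSO replicate 1 or 3 or 1 μM replicate 1 or 3 (up to 0.145). That call was also lost with DESeq2 (0.0609), limma (0.0750), the filter at 1 count (0.0654), a single fit of all 9 samples (0.0518) and the replicate block (0.0618).

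Of 7 ubiquitin ligases that act on KLF proteins or this pathway, 2 rose at 1 μM, against 7.67% of all genes. They were FBXO32, a muscle atrophy ligase (0.50, SE 0.08, adjusted p = 0.00106), and SMURF2, which targets TGF-beta receptors (0.25, SE 0.07, adjusted p = 0.0178). The SMURF2 call was lost without DMSO replicate 3 (0.0564) or 1 μM replicate 1 (0.0866). Of 13 tested genes reported as KLF targets in other cells, 6 rose and 0 fell, against the same 7.67% and 9.95%. The 6 include TGFB1, whose call is described above. The list does not record whether a KLF protein activates or represses each gene, so these rises are not read against the KLF values. The cell cycle inhibitor CDKN1A, known as p21, rose from 7.94 ± 0.0206 to 12.6 ± 0.322 FPKM (0.65, SE 0.07, adjusted p = 7.8e-05). THBD, encoding thrombomodulin (0.43, SE 0.08, adjusted p = 0.00249), and CCND1, encoding cyclin D1 (0.36, SE 0.05, adjusted p = 0.000478), rose too.

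The median log2 fold change was 0.14 for the TGF-beta pathway and 0.21 for the reported targets, and -0.0083 for all genes. Those 2 lists share TGFB1 and SMAD7. None of these lists held a called gene at 0.3 μM, where 0 genes were called in all. Between the doses, among genes named here after their values were seen, MEF2A, TGFBR2, SMURF1, SMURF2, CDKN1A, CCND1 and PLAUR were called as higher and TGFB2 as lower.

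**Figure D4:**
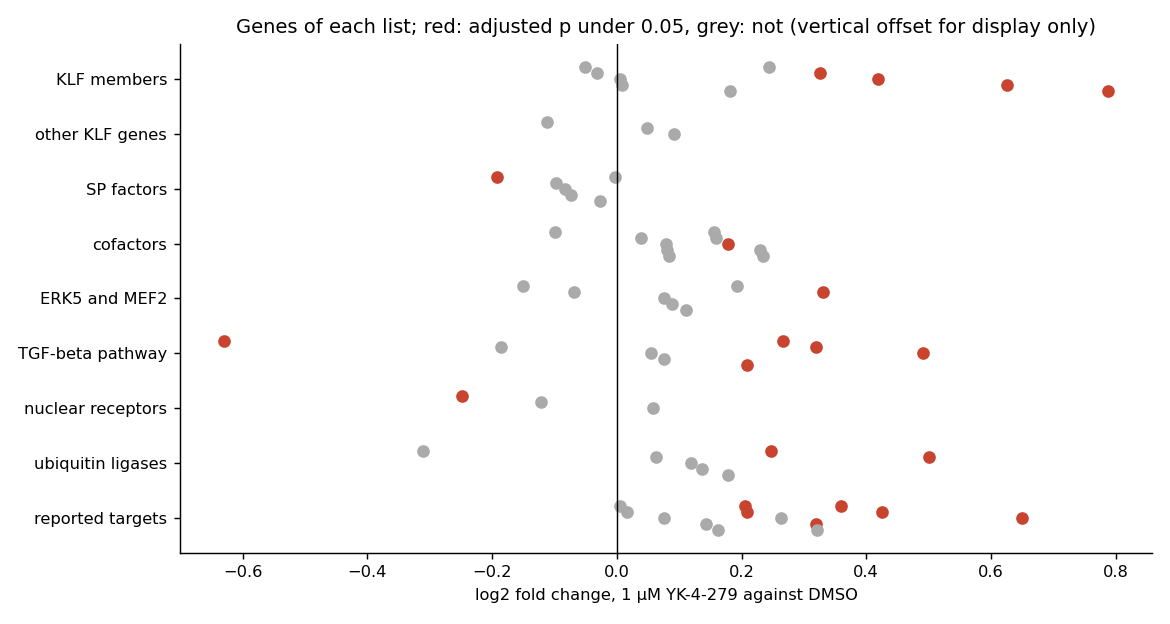
Log2 fold change at 1 μM against DMSO for the tested genes of each list, 1 point a gene, red where the adjusted p was under 0.05. The 4 red KLF points lie at 0.33 or above, and the TGF-beta list holds both TGFB2 at -0.63 and TGFBR2 at 0.49.

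The 3 protein-coding genes whose log2 CPM followed that of KLF11 most closely over the 9 samples, out of 12759 compared, were WDR82 (Pearson r = 0.977), MXRA5 (0.961) and SYT11 (0.961). The 9 samples share their group means, so these values describe the ranking only, and MXRA5 rested on 5 to 17 counts a sample. The GC content of the 10 genes ran from 45.4% for KLF10 to 64.8% for KLF2, and that of the called genes from 45.4% to 57.4%. No gene overlapping a KLF gene had a mean of 10 counts or more, and the 10 KLF pseudogenes had at most 6 counts in a sample.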

How the data were processed

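Counts per gene for the 9 samples were deposited by the authors as whole numbers without normalization, beside FPKM values that the authors computed. By sample, those FPKM values had a median of 0.977 to 1.008 times the value from count, gene length and total count. The library size behind them was thus not simply the total count. The authors' own fold changes and p-values, also deposited, were not used. The submitters' processing notes name HISAT2 2.0.5, featureCounts 1.5.0-p3 and DESeq2 1.20.0, whereas the study's methods name HTseq for counting on GRCh38. The methods mention 2 biological replicates per condition, against 3 samples in the labels. The strand setting is not given in the sources used here. FPKM was used for levels and counts for tests.

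Low genes were removed by filterByExpr (minimum count 10), and the rest were scaled by TMM and fitted on the groups compared with glmQLFit and glmQLFTest in edgeR 4.0.16 (R 4.3.3), with Benjamini-Hochberg adjustment over all genes tested and 95% intervals. Called means an adjusted p under 0.05. The fits were tested on simulated counts, with a single dispersion for all genes and no sample effects beyond library size. That test gives no error rate for these samples. Alternatives were DESeq2 1.42.0, limma 3.58.1 on log2(FPKM + 0.5), other size factors, no filter beyond 1 count, a single fit of all samples, corrections for GC content (known for 99.1% of genes) and length, a replicate block, and leaving out each sample.

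All 10 KLF genes are named, and of the other lists at most 3 called genes with the largest change at 1 μM, beside a few named after their values were seen (TGFBR1, SMAD3, SMURF1, PLAUR). The members and lists were chosen with earlier results of these data known. Protein sequences were not used here. Plots used matplotlib 3.10.9 and tables pandas 2.3.3 in Python 3.11.15.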

Additional observations from a re-analysis of the deposited data

How the results depend on the processing

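Over 14 alternatives, KLF10, KLF11 and KLF13 stayed called at 1 μM against DMSO, and KLF10 and KLF13 between doses. In the comparison of 1 μM with DMSO, 6 of 140 KLF values lost a call, all for KLF4, and so did 29 of 168 values of the 12 named list genes, for SP1, CTBP2, TGFB1, THRA and SMURF2, and the cause was not tested. Requiring a 1.5-fold change left 2 genes called at 1 μM against DMSO and 0 between doses, and an unadjusted p gave 2 at 0.3 μM. Leaving out single samples gave 3 to 4 genes called at 1 μM against DMSO, 2 between doses and 0 at 0.3 μM, and 1 to 4 overlapping neighbours in the DMSO order, the 1 without DMSO replicate 2 (chosen after seeing the data).

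No called value changed sign. At 0.3 μM against DMSO, KLF5 was 0.0074 with the GC correction, and KLF6 was -0.0004 with the replicate block, -0.0016 with the GC and -0.0046 with the length correction. At 1 μM against DMSO, KLF5 was -0.0072 with the GC and -0.0052 with the length correction. Between doses, KLF5 was -0.0153 with the GC correction, and KLF7 was 0.0013 with limma and 0.0079 with the length correction. Without single samples, log2 fold changes at 0.3 μM ran from -0.0562 to 0.1094 for KLF3, -0.1319 to 0.0650 for KLF5, -0.0756 to 0.0801 for KLF6, -0.0986 to 0.0740 for KLF7, -0.0341 to 0.1883 for KLF9 and -0.0025 to 0.0904 for KLF13. At 1 μM they ran from -0.0487 to 0.0629 for KLF5, -0.0373 to 0.0921 for KLF6, -0.0579 to 0.0181 for KLF7 and -0.0875 to 0.0046 for KLF9, and between doses from -0.0459 to 0.1441 for KLF5, -0.0388 to 0.0913 for KLF6 and -0.0910 to 0.0746 for KLF7.

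Same-numbered samples correlated at -0.022 to 0.082 in their deviations from group means, and differently numbered ones at -0.069 to 0.038. Between DMSO and 0.3 μM, the same-numbered values (0.082, 0.065 and 0.02) were above all others (up to 0.005), which weak pairing could give. Correlations with the 1 μM samples did not show that order. The main fits did not take the numbers as pairs. The replicate block left 4 KLF genes called at 1 μM against DMSO, 2 between doses and 0 at 0.3 μM. KLF11, KLF4 and KLF2 had the fewest counts of the 10 genes, 95 to 232 a sample. In DMSO, KLF2 had 163, 95 and 132 counts and KLF11 had 114, 108 and 118. What set the spread of each gene was not tested.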
